A study of Homo sapiens with 15 samples.

Results

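The genes NTNG2, AFAP1L2, C15orf48, GEM, CLEC7A, CRIP1, GDPD5, LTBP2, and TNFRSF1A were followed over the 5 conditions of an experiment on osimertinib-resistant lung adenocarcinoma cells. These 9 genes were selected on these data, as genes seen to rise with 1,25(OH)2D3 in the resistant cells and standing outside the textbook vitamin D targets, and all 9 of them were found among the 19612 gene symbols of the table. Each of the 9 was among the 12819 genes that passed the filter on low counts. H1975 is an established EGFR-mutant lung adenocarcinoma line, and H1975-OR is a derivative of it grown continuously in osimertinib, a tyrosine kinase inhibitor of mutant EGFR. There were 5 groups of 3 libraries, lettered a, b, and c. Group 1 was H1975 given vehicle and group 2 was H1975-OR given vehicle, so group 2 had no osimertinib during treatment. The resistant cells of group 3 received 1,25(OH)2D3 at 100 nM, those of group 4 osimertinib at 500 nM, and those of group 5 the combination. Cells were dosed at the start and again at 48 and 92 h and were collected at 96 h. Treatment was in charcoal-stripped serum. The study describes 3 separate passages for cells given vehicle or 1,25(OH)2D3, and does not say so for groups 4 and 5. Only H1975-OR received 1,25(OH)2D3, so nothing here bears on the response of H1975 to it, and the resistant line is a single derivative of 1 parent.

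1,25(OH)2D3, the hormonal form of vitamin D, enters cells and binds the vitamin D receptor (VDR), a transcription factor of the nuclear receptor family. The receptor pairs with a retinoid X receptor such as RXRA and binds vitamin D response elements, typically direct repeats of a hexamer with a spacer of 3 bases. CYP24A1, the enzyme that degrades the hormone, is its best known target. The 9 genes encode proteins of unrelated kinds. TNFRSF1A (TNF receptor 1), CLEC7A (dectin-1, a receptor for fungal beta-glucan), and NTNG2 (netrin-G2, a membrane-anchored adhesion protein) act at the cell surface. AFAP1L2 is an adaptor that binds SRC and PI3-kinase, GEM is a small GTPase that binds calcium channel beta subunits, and CRIP1 is a small LIM-domain protein. C15orf48 is a mitochondrial paralogue of NDUFA4, GDPD5 is a glycerophosphodiester phosphodiesterase, and LTBP2 is an extracellular matrix protein of the latent TGF-beta binding family.

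In GENCODE v44 (GRCh38), TNFRSF1A is at chr12:6328757-6342114 (minus strand), CLEC7A at chr12:10116777-10130258 (minus), and NTNG2 at chr9:132162058-132244526 (plus). AFAP1L2 is at chr10:114294824-114404756 (minus) and CRIP1 at chr14:105486317-105488947 (plus). C15orf48 is at chr15:45430579-45448761 (plus), GDPD5 at chr11:75434640-75525941 (minus), and LTBP2 at chr14:74498183-74612378 (minus). RefSeq lists pseudogenes of CRIP1 elsewhere in the genome, and how reads were split between them is not given, so the count of CRIP1 is uncertain to that extent.

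RefSeq promoter sequences (GRCh38) were matched for 6 of the 9 genes, in 8 windows of the 250 bases before an annotated start, with C15orf48 found under its newer symbol COXFA4L3. NTNG2, CLEC7A, and GEM were not matched. The windows were searched on both strands for the hexamer AGGTCA and for its variants with T as the third base (AGTTCA), with G as the first base (GGGTCA), and with both changes (GGTTCA), the forms in which vitamin D response elements are usually written. A hexamer was found in 4 of the 8 windows, beside 33.8% of all 35116 windows of that length. A direct repeat of these hexamers with 3 bases between them was in none of the 8, and in 0.0655% of all windows. The matches are shown because all 4 genes were chosen for a rise with 1,25(OH)2D3, with the hexamer in capitals, 12 bases on either side, and each on the strand on which it reads as above:
AFAP1L2: cccctccccgtgAGGTCAcgctcgcggccg
CRIP1: gcgtgggatggaAGGTCAgagtgggttcct
GDPD5: tcccggcgcagcGGGTCAgggccggggctc
LTBP2: cgaccagcgcctGGGTCAgccccgcgccgc

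The AFAP1L2 stretch is chr10:114404540-114404569 on the plus strand, opposite to the gene, with its hexamer 55 to 50 bases before the RefSeq start. That of CRIP1 is chr14:105486650-105486679 on the plus strand, the strand of the gene, 224 to 219 bases before the start. For GDPD5 it is chr11:75525615-75525644 on the plus strand, opposite to the gene, 59 to 54 bases before the start of that window, and for LTBP2 chr14:74612417-74612446 on the minus strand, the strand of the gene, 197 to 192 bases before it. By GENCODE, which has starts further upstream, the hexamers of AFAP1L2, CRIP1, and GDPD5 lie in an exon of the gene, and that of LTBP2 lies upstream of the gene. Such a match describes letters only. No binding was measured.

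The values are estimated counts scaled to library size by TMM (CPM). The 15 libraries summed to between 4378030 and 6140120 estimated counts. Sample 3a stood apart. Its log2(CPM) values correlated with those of 3b and 3c at 0.890 on average, beside 0.944 for 3b with 3c, and replicates of the other groups correlated at 0.913 to 0.948. It was left out of the fits, as in the study, and its values are given separately. Epithelial and lung markers summed to between 3223 and 5544 CPM, carried by the keratins, while NAPSA and SFTPB lay near 0. The sum hides differences between the lines. EPCAM was at 74.8 to 207 CPM in H1975 and at 1.17 to 12.7 CPM in H1975-OR. KRT19 was at 1032 to 1227 CPM and at 97.8 to 614 CPM. KRT7, KRT8, KRT18, and NKX2-1 overlapped between the lines. CPM is not scaled for gene length, so the 9 genes are compared over groups and not with each other. In a bulk library, fewer cells that express a gene and less RNA per cell cannot be told apart.

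The comparison of 1,25(OH)2D3 alone with vehicle in H1975-OR was taken as the one by which the genes were selected. In it the means went from 3.20 to 32.8 CPM for NTNG2, from 12.5 to 93.4 CPM for TNFRSF1A, and from 11.3 to 62.2 CPM for C15orf48. Means for the other 6 went from 10.8 to 58.1 CPM (CLEC7A), 11.6 to 58.6 CPM (AFAP1L2), 7.94 to 31.0 CPM (GEM), 22.0 to 73.5 CPM (GDPD5), 21.8 to 67.2 CPM (LTBP2), and 26.7 to 80.1 CPM (CRIP1). The fitted log2 fold changes ran from 1.59 ± 0.134 (SE, 2 treated against 3 vehicle libraries) for CRIP1 to 3.35 ± 0.597 for NTNG2, with a median of 2.33 over the 9 genes and -0.01 over all tested genes. These differences chose the genes, so no test is given for them. In all 9, Samples 3b and 3c lay above every vehicle library, which held for 13.0% of all tested genes, and so did Sample 3a, which held for 34.3%. Nothing is read from these counts.

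**Figure D1:**
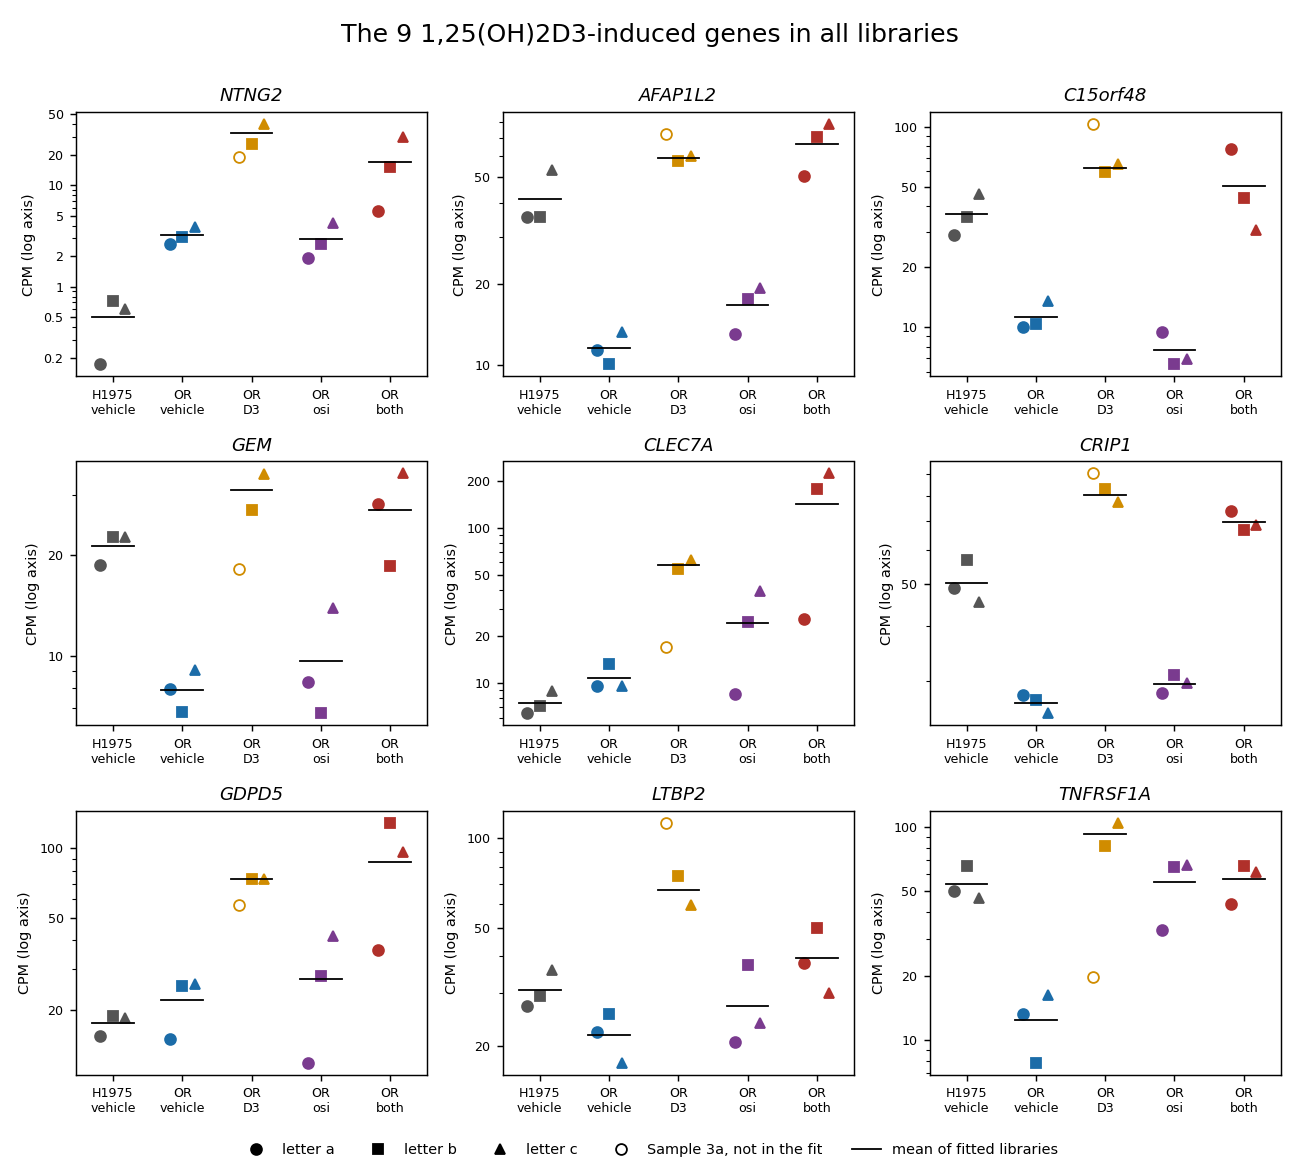
Each panel shows 1 gene, with the 5 groups on the x axis (OR is H1975-OR, D3 is 1,25(OH)2D3, osi is osimertinib) and CPM on a log axis. Points are libraries, with the letter as the shape and Sample 3a open, and bars are means of the fitted libraries. TNFRSF1A lies between 7.84 and 16.4 CPM in H1975-OR with vehicle, below every library of the other 4 groups.

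The response was then examined in the libraries that were not used to select the genes, with both agents against osimertinib alone. The spread behind its tests came from the fit of 14 libraries, which include those that chose the genes. The calls are thus not fully independent of the choice. In this comparison 3 of the 9 genes rose and none fell (edgeR, adjusted p under 0.05 over all 12819 genes), beside 0.0546% of all genes called higher. CRIP1, AFAP1L2, and C15orf48 were 3 of the 7 genes called higher. The other 4, named after their values were seen, were CYP24A1, MGP, COL1A1, and CDH1. The median log2 fold change was 1.68 over the 9 genes and 0.01 over all tested genes. Same-letter libraries of these groups deviated together, so the letters were also treated as pairs. Whether a letter marks a passage is not given, so this pairing was read from the data. With the letter as a block, 5 of the 9 genes rose, adding NTNG2 and GEM, beside 0.133% of all genes called higher. The lowest library with both agents lay above the highest with osimertinib for those 5 genes, beside 3.79% of all genes. Both agents gave a higher value than osimertinib in every letter for 8 genes, TNFRSF1A being the exception, beside 16.9% of all genes.

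CRIP1 was at 28.1, 30.9, and 29.6 CPM in Samples 4a, 4b, and 4c and at 73.9, 66.6, and 68.6 CPM in 5a, 5b, and 5c. The groups lay far apart and the spread within each was small. The fold was 2.36 (95% interval 1.96 to 2.84, adjusted p = 0.00147). AFAP1L2 was at 13.1, 17.6, and 19.4 CPM with osimertinib and at 50.3, 70.1, and 78.5 CPM with both agents. It was lowest in letter a of each group, and its groups did not overlap. Its fold was 3.97 (2.81 to 5.60, adjusted p = 0.00526). C15orf48 was at 9.50, 6.54, and 6.94 CPM with osimertinib and at 77.3, 43.9, and 30.6 CPM with both agents, here with the highest value in letter a of each group. The fold was 6.59 (4.02 to 10.8, adjusted p = 0.00621).

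GEM, a gene at chr8:94249253-94262350 (minus strand), was at 8.36, 6.74, and 13.9 CPM with osimertinib and at 28.2, 18.5, and 34.9 CPM with both agents, again without overlap. The fold of GEM was 2.81 (1.796 to 4.41), with an adjusted p of 0.146 that became 0.0349 with the replicate block. NTNG2 was at 1.90, 2.66, and 4.29 CPM with osimertinib and at 5.61, 15.01, and 29.7 CPM with both agents. Letter a was low in each group, and Sample 5a lay nearer to the osimertinib libraries than to 5c. Its fold was 5.65 (2.43 to 13.1), with an adjusted p of 0.215 that became 0.0376 with the block.

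CLEC7A and GDPD5 varied widely between letters. CLEC7A was at 8.55, 24.9, and 39.4 CPM in Samples 4a, 4b, and 4c and at 26.0, 179, and 224 CPM in 5a, 5b, and 5c, so that 5a lay below 4c. Its fold was 5.89 (2.27 to 15.3), with an adjusted p of 0.347 and of 0.104 with the replicate block. GDPD5 was at 11.8, 28.0, and 41.7 CPM with osimertinib and at 36.2, 129, and 95.9 CPM with both agents, with 5a again below 4c. The fold of GDPD5 was 3.20 (1.62 to 6.35), with an adjusted p of 0.471 and of 0.0562 with the block. Within a letter, the ratio of both agents to osimertinib was 3.05, 7.18, and 5.69 for CLEC7A and 3.08, 4.6, and 2.30 for GDPD5. COL3A1, a fibroblast marker that H1975-OR also carried, was likewise low in letter a, at 12.5 CPM in 4a and 19.4 CPM in 5a beside 53.5 to 160 CPM in the other 4 libraries. The fibroblast markers did not share this pattern as a set. DCN was also lowest in letter a of each group, at 0.380 CPM in 4a and 0.400 CPM in 5a. LUM was highest there, at 9.31 CPM in 4a and 14.01 CPM in 5a. PDGFRB was lowest in letter a with osimertinib and highest in it with both agents. PDGFRA and THY1 lay near 0. The part of these markers in the values of CLEC7A and GDPD5 was not tested.

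LTBP2 was at 20.5, 37.4, and 23.9 CPM with osimertinib and at 38.0, 49.96, and 30.2 CPM with both agents, and the groups overlapped. Its fold was 1.44, with an interval from 0.983 to 2.12 (adjusted p = 1). TNFRSF1A was at 33.0, 65.4, and 66.8 CPM with osimertinib and at 43.8, 65.4, and 61.5 CPM with both agents. The values of TNFRSF1A were alike in letters b and c, and its fold was 1.03, with an interval from 0.665 to 1.61 (adjusted p = 1).

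Other settings changed these calls. DESeq2 on the same counts called 7 of the 9 genes higher, all but LTBP2 and TNFRSF1A, and a fit of the 6 libraries of the compared groups alone called none of them, with adjusted p of 0.104 for AFAP1L2, 0.157 for C15orf48, and 0.0971 for CRIP1. Those were the highest of their adjusted p-values over 24 alternatives, and the lowest were 1.1e-11, 2.3e-11, and 1.1e-14. Without Sample 4c the adjusted p of C15orf48 was 0.0584, and without 5a that of CLEC7A was 0.0225. Without any letter a library, a setting chosen after the data were seen, CLEC7A (adjusted p = 0.0112) and GDPD5 (0.0315) were also called higher.

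**Figure D2:**
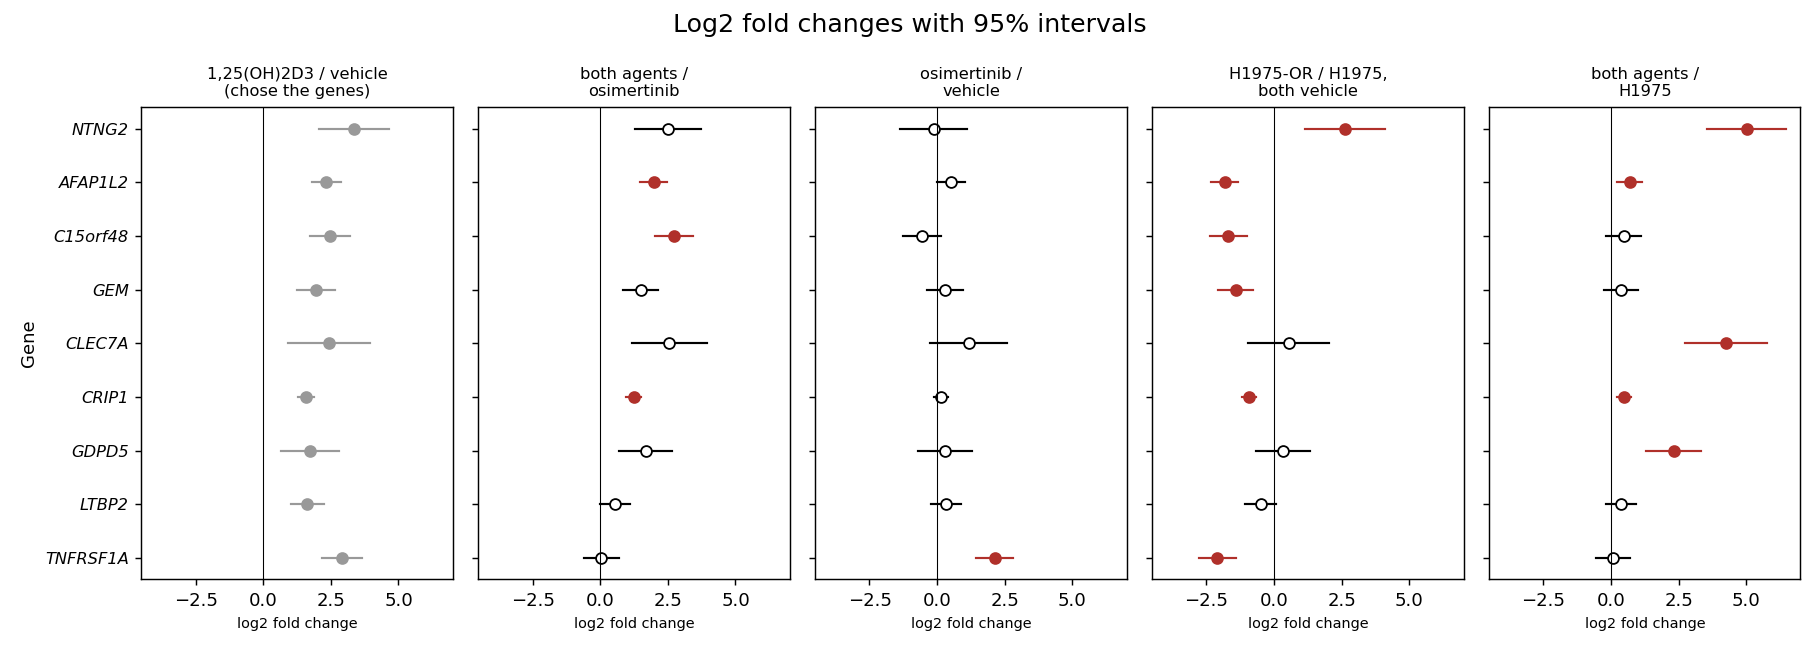
Log2 fold changes (x axis) of the 9 genes (y axis) in 5 comparisons, with 95% intervals from the fit of 14 libraries. Filled red points passed an adjusted p of 0.05, open points did not, and grey points are the comparison that chose the genes and have no test. CRIP1, AFAP1L2, and C15orf48 are red for both agents against osimertinib.

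The size of the 1,25(OH)2D3 response with osimertinib can be set beside that without it, as a description, since the second chose the genes. The difference between the responses (with minus without osimertinib) was -2.85 ± 0.448 (SE, log2) for TNFRSF1A and -1.09 ± 0.380 for LTBP2. For NTNG2 the difference was -0.85 ± 0.804. In the other 6 genes it lay between -0.47 (GEM) and 0.26 (C15orf48), with standard errors from 0.182 (CRIP1) to 0.941 (CLEC7A).

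**Figure D3:**
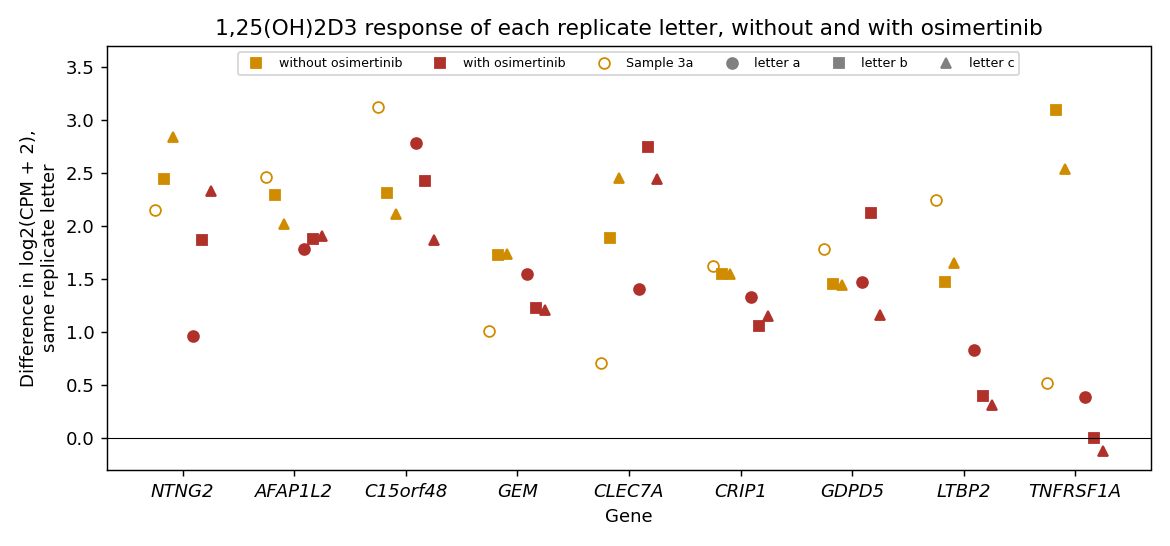
Difference in log2(CPM + 2) between libraries of the same letter (y axis) for each gene (x axis), for 1,25(OH)2D3 minus vehicle (orange) and both agents minus osimertinib (red). With osimertinib, the 3 differences of TNFRSF1A lie between -0.12 and 0.39, while without it letter a (Sample 3a) lies at 0.52 and letters b and c at 3.09 and 2.54.

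TNFRSF1A was also the single gene of the 9 that differed between osimertinib alone and vehicle in H1975-OR. For this line, vehicle meant 96 h without the drug in which it is kept. A rise with the drug and a fall on its withdrawal therefore cannot be told apart. TNFRSF1A was at 13.3, 7.84, and 16.4 CPM in H1975-OR with vehicle and at 33.0, 65.4, and 66.8 CPM with osimertinib, without overlap. The fold was 4.39 (95% interval 2.73 to 7.06, adjusted p = 0.0266, edgeR). This comparison shares the vehicle libraries with the one that chose the genes, so it is not independent of the choice. Over all genes, 0.0546% were called higher with osimertinib. The call was lost with Sample 3a in the fit (adjusted p = 0.218), in the 6 libraries alone (0.273), and in the 11 H1975-OR libraries (0.0814). It was also lost without Sample 1a (0.0527), 2b (0.127), 2c (0.0688), 4b (0.146), or 4c (0.135), while the log2 fold change stayed between 1.89 and 2.44 and the adjusted p between 9.2e-08 and 0.273 over 24 alternatives. For the other 8 genes the log2 fold changes lay between -0.55 (C15orf48) and 1.16 (CLEC7A), and none passed the test. CLEC7A passed it only without the letter a libraries (adjusted p = 0.0439).

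In vehicle-treated H1975-OR, 5 of the 9 genes were lower than in H1975 and NTNG2 was higher, beside 9.32% of all genes called lower and 9.37% called higher. TNFRSF1A was at 49.9, 65.4, and 46.7 CPM in H1975 and 4.31-fold lower in H1975-OR (adjusted p = 8.7e-04). AFAP1L2 was at 35.4, 35.6, and 53.0 CPM in H1975 and at 11.4, 10.1, and 13.3 CPM in H1975-OR with vehicle, 3.55-fold lower (adjusted p = 3.0e-04). C15orf48 was 3.25-fold lower (28.7, 35.6, and 46.1 CPM against 10.0, 10.3, and 13.5 CPM, adjusted p = 0.00295). GEM was 2.67-fold lower, at 18.7, 22.5, and 22.5 CPM against 7.97, 6.81, and 9.05 CPM (adjusted p = 0.00662). CRIP1 was 1.89-fold lower, at 49.1, 56.9, and 45.4 CPM against 27.8, 27.0, and 25.2 CPM (adjusted p = 4.2e-04). The vehicle H1975-OR libraries are again those that chose the genes, so these values are not independent of the choice.

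NTNG2 was nearly silent in H1975, with 0.173, 0.727, and 0.609 CPM, and stood at 2.66, 3.10, and 3.85 CPM in vehicle-treated H1975-OR (6.19-fold, adjusted p = 0.0187). The H1975 values of NTNG2 rest on 1 to 4 counts a library, and its call was lost without Sample 1a (adjusted p = 0.0634), 1c (0.0523), or 2c (0.0545). NTNG2 passed the filter on low counts only through H1975-OR libraries, where it is higher. CLEC7A was at 6.39, 7.09, and 8.93 CPM in H1975 and at 9.60, 13.2, and 9.62 CPM in H1975-OR. GDPD5 was at 15.4, 18.7, and 18.5 CPM against 14.9, 25.4, and 25.8 CPM, and LTBP2 at 27.1, 29.4, and 35.9 CPM against 22.3, 25.6, and 17.5 CPM. These last 3 genes did not pass the test between the lines, with folds of H1975-OR over H1975 of 1.45 (0.516 to 4.07), 1.26 (0.628 to 2.52), and 0.707 (0.480 to 1.04). Here too the vehicle H1975-OR libraries are those that chose the genes, so none of these values is independent of the choice.

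The osimertinib libraries, taken as not used to choose the genes, were compared with H1975 as well, again with the spread of the 14-library fit. There too NTNG2 was higher (5.69-fold, adjusted p = 0.0198), beside 11.3% of all genes. It passed the filter on low counts only through H1975-OR libraries, where it is higher. In a fit of the 6 libraries of this comparison alone it did not pass and was not tested. AFAP1L2 (2.47-fold, adjusted p = 0.00177), C15orf48 (4.78-fold, 5.3e-04), GEM (2.20-fold, 0.0160), and CRIP1 (1.71-fold, 9.8e-04) were lower, beside 12.0% of all genes. TNFRSF1A, lower in vehicle-treated H1975-OR, was here at 1.02 times its H1975 level (0.656 to 1.58). The call of NTNG2 was lost without Sample 1a (adjusted p = 0.0678) or 4c (0.0744), and that of GEM without 1b (0.0506) or 4b (0.0709) and without the letter a libraries (0.0722). CLEC7A was called higher without 4a (0.0337) or 5a (0.0124), by DESeq2 (0.0235), and without the letter a libraries (0.00144), as was GDPD5 in the last setting (0.0181).

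With both agents, 5 of the 9 genes were higher than in H1975, beside 13.5% of all genes, and none was called lower. NTNG2 stood 32.1-fold above H1975 (95% interval 11.7 to 88.5, adjusted p = 2.7e-04), CLEC7A 19.1-fold (6.67 to 54.8, 0.00104), and GDPD5 4.96-fold (2.45 to 10.0, 0.00352). The fold of NTNG2 rests on 1 to 4 counts in an H1975 library. NTNG2 passed the filter on low counts only through H1975-OR libraries, where it is higher. AFAP1L2 was 1.60-fold (1.15 to 2.23, 0.0362) and CRIP1 1.38-fold higher (1.15 to 1.65, 0.0129). C15orf48 (1.38-fold, 0.880 to 2.16), GEM (1.28-fold, 0.831 to 1.97), LTBP2 (1.28-fold, 0.872 to 1.87), and TNFRSF1A (1.05-fold, 0.677 to 1.64) did not pass the test. The call of AFAP1L2 was lost without Sample 1a (adjusted p = 0.116), 1b (0.131), 3b (0.0520), 3c (0.0519), 5b (0.0915), or 5c (0.114). That of CRIP1 was lost without 1c (0.0595) or the letter a libraries (0.0895), and both calls were lost in the 6 libraries alone (0.0771 for AFAP1L2 and 0.0604 for CRIP1).

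Across the 14 libraries the 9 genes did not move as 1 block. Pearson's r of log2(CPM) lay between 0.86 and 0.94 among AFAP1L2, GEM, CRIP1, and C15orf48, the genes with a lower level in H1975-OR than in H1975 other than TNFRSF1A. Between NTNG2, CLEC7A, and GDPD5, which were low in letter a, it lay between 0.86 and 0.96. C15orf48 and CLEC7A correlated at 0.32, the lowest value of any pair. These are descriptions over libraries that share their treatments, and members were selected on some of them.

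**Figure D4:**
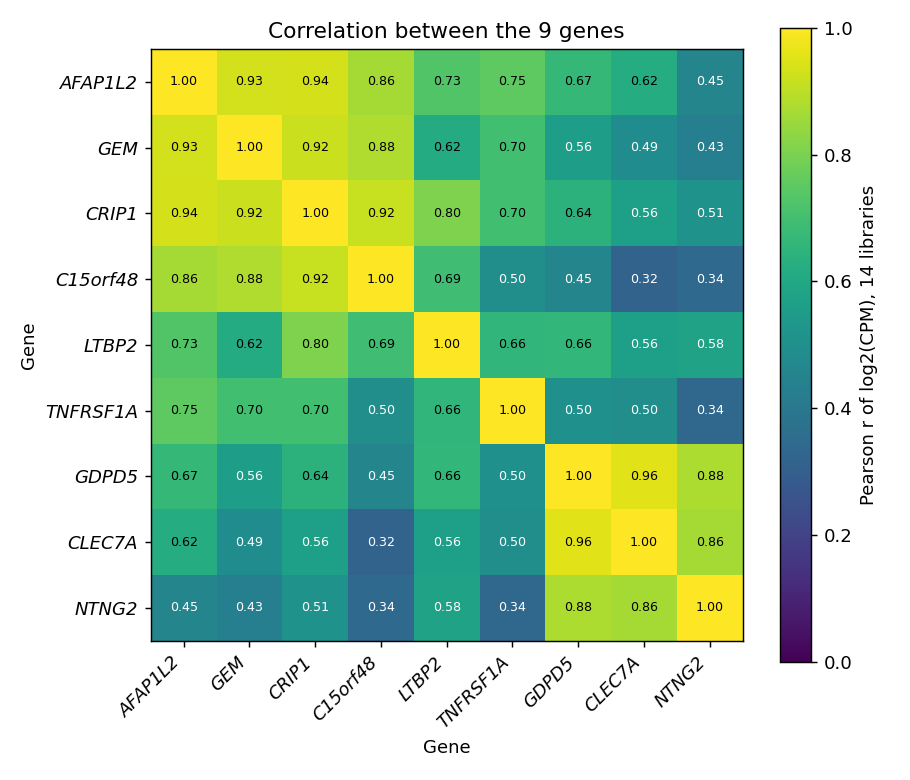
Pearson's r of log2(CPM) over 14 libraries for each pair of the 9 genes, which are named on both axes and ordered after the values were seen. The 4 genes AFAP1L2, GEM, CRIP1, and C15orf48 form the upper left block at 0.86 to 0.94, and GDPD5, CLEC7A, and NTNG2 the lower right one.

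The 10 genes most like the mean pattern of the 9, by Pearson's r over the same 14 libraries, were COL1A1 (0.958), CYP24A1 (0.939), UBASH3B (0.936), ETS2 (0.928), SEMA3B (0.911), ALPI (0.908), STEAP3 (0.882), RP11-295K3.1 (0.875), LOX (0.872), and JUNB (0.863). CYP24A1 was at 8.58, 3.30, and 4.81 CPM with vehicle and at 868 and 1467 CPM in Samples 3b and 3c. With osimertinib it was at 9.12, 3.47, and 6.94 CPM, and with both agents at 1063, 675, and 914 CPM. COL1A1, a fibrillar collagen chain, was at 11.02, 26.6, and 10.6 CPM with osimertinib and at 81.5, 124, and 106 CPM with both agents.

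For each of the 9 genes, relatives and partners were examined in 10 lists, written with earlier results of these data known, with 98 genes of which 74 were tested. With both agents against osimertinib, 1 of the 74 rose, CYP24A1, and none fell. With osimertinib against vehicle none passed the test. Against H1975, 12 were higher and 7 lower in vehicle-treated H1975-OR, 10 higher and 9 lower with osimertinib, and 13 higher and 6 lower with both agents. Beside these counts, the shares of all genes called higher are those given above. Called lower were 0.0546% of all genes with both agents against osimertinib, 0.0390% with osimertinib against vehicle, and 13.6% with both agents against H1975, and the other shares called lower are given above.

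In the vitamin D list of 18 genes, of which 13 were tested, VDR was at 30.4 CPM with vehicle, 37.2 CPM with 1,25(OH)2D3, 20.8 CPM with osimertinib, and 25.4 CPM with both agents. Its partner RXRA had a log2 fold change of -1.87 ± 0.482 with both agents against osimertinib, which did not pass the test (adjusted p = 0.415). CYP24A1 was the gene of the list that rose in that comparison (log2 fold change 7.07 ± 0.406, adjusted p = 4.7e-06), and the median of the list was 0.88. The median over the list was -0.46 in H1975-OR against H1975 with vehicle, where CYP24A1, FBP1, and SEMA3B were called lower and CAMP higher. CAMP had no count in H1975 and was at 0.409, 3.51, and 6.35 CPM in Samples 2a, 2b, and 2c. Its mean was at least 18.6-fold higher against a floor of 3 counts over the H1975 libraries (0.185 CPM). SEMA3B, a secreted semaphorin, was higher with both agents than in H1975 (64.6 and 36.3 CPM).

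Around TNFRSF1A, 21 of 24 listed genes of the TNF receptor 1 pathway were tested. None of the 21 passed the test with both agents against osimertinib or with osimertinib against vehicle, and the median log2 fold changes were 0.09 and 0.01. TNF and LTA, its ligands, were not among the tested genes. The second receptor, TNFRSF1B, had counts in 1 library only of H1975 (1c, 4.06 CPM) and of vehicle-treated H1975-OR (2b, 4.33 CPM). Between these groups RIPK1, the kinase recruited to the receptor, was higher (58.1 and 82.5 CPM), as were BIRC2 and MAP3K7, and TRAF5 and CHUK were lower. TNFAIP3, the ubiquitin-editing inhibitor of the pathway, was lower with osimertinib than in H1975 (3.85 and 15.7 CPM).

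CLEC7A signals through SYK, and SYK was at 18.7 CPM in H1975 and at 0.523 CPM in vehicle-treated H1975-OR (log2 fold change -5.08, adjusted p = 0.00148). SYK stayed at 0.145 to 0.771 CPM in the treated H1975-OR groups. CARD9, the adaptor below SYK, was not among the tested genes. MALT1, the paracaspase of the same pathway, was higher in vehicle-treated H1975-OR (156 CPM) than in H1975 (94.7 CPM), and the neighbouring lectin CLEC2B was higher as well. BCL10 was lower with osimertinib than in H1975 (34.0 and 47.1 CPM), and OLR1 was higher with both agents than in H1975 (2.35 and 0.118 CPM). PLCG2 was at 33489 to 57743 CPM on average in the 5 groups, a share of the library that makes its value hard to read. Since CLEC7A is known from myeloid cells, leukocyte markers were summed. The 9 markers together came to between 0.962 and 8.64 CPM in every library, and CD163, TYROBP, and AIF1 were at 0 in all 15 libraries.

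LRRC4, the ligand of netrin-G2, was at 2.71 CPM in H1975 and 4.31 CPM in vehicle-treated H1975-OR and did not pass the test in any comparison. LRRC4C, the ligand of netrin-G1, had no count in H1975 and 12.3 CPM in vehicle-treated H1975-OR, at least 66.8-fold higher against a floor of 3 counts over the H1975 libraries (0.185 CPM). NTNG1 was not among the tested genes. AFAP1 and AFAP1L1, the relatives of AFAP1L2, did not pass the test in any comparison, and AFAP1 was at 79.1 to 99.5 CPM in the 5 groups. PIK3R1, the PI3-kinase regulatory subunit, was at 25.8 CPM in H1975 and 122 CPM in vehicle-treated H1975-OR (log2 fold change 2.24).

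NDUFA4, the paralogue of C15orf48, was at 166 to 203 CPM in the 5 groups and passed the test in no comparison. Of the other respiratory chain genes listed with it, COX7C was higher in vehicle-treated H1975-OR (332 CPM) than in H1975 (233 CPM), and COX5B was lower with osimertinib than in H1975 (142 and 196 CPM). RRAD, the GTPase most often named with GEM, was at 27.7, 0.613, and 3.47 CPM with osimertinib and at 52.9, 9.38, and 10.8 CPM with both agents, with letter a far above the others in each, and did not pass the test. None of the 4 tested genes of that list did in any comparison.

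CRIP2, the relative of CRIP1, was higher in vehicle-treated H1975-OR (41.0 CPM) than in H1975 (19.4 CPM), opposite in sign to CRIP1, and CSRP1 was higher too. CSRP3 was lower with osimertinib and with both agents than in H1975, where it was at 2.09 CPM. GPCPD1, a phosphodiesterase related to GDPD5, was at 41.0 CPM in H1975, 70.0 CPM in vehicle-treated H1975-OR, and 124 CPM with both agents, and was called higher in each H1975-OR group tested. LTBP1, the relative of LTBP2, was at 36.5 CPM in H1975 and 7.64 CPM in vehicle-treated H1975-OR (log2 fold change -2.26), and was called lower in each H1975-OR group tested. TGFB2 was higher with both agents than in H1975 (185 and 85.8 CPM). Fibroblast markers summed to between 2.73 and 7.09 CPM in H1975 and to between 43.1 and 186 CPM in H1975-OR, through COL3A1 and PDGFRB. Their part in the difference between the lines was not tested.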

How the data were processed

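The deposited table holds estimated counts per gene, which the authors made from stranded total RNA libraries with kallisto and tximport. The submitters' processing notes name CASAVA 1.8.2, STAR 2.5.2b, kallisto 0.43.0, and GRCh38. The annotation and the tximport settings are not given in the sources used here, so whether tximport scaled the counts for library size or length is not known. The depth (4378030 to 6140120 estimated counts per library) limits low genes, such as NTNG2 in H1975.

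Counts were rounded and fitted with edgeR 4.0.16 (R 4.3.3) in 1 model of 14 libraries, without Sample 3a. Genes were kept by filterByExpr (minimum count 10, minimum total 15), scaled by TMM, and compared with the two-sided quasi-likelihood test at a Benjamini-Hochberg adjusted p of 0.05. CPM of the 14 fitted libraries used the TMM factors of that fit, while CPM of Sample 3a used factors from all 15 libraries. Correlations used a prior count of 2. The libraries that chose the genes are not named. The H1975-OR libraries with 1,25(OH)2D3 or vehicle and no osimertinib were taken as those, so that comparison has no test. The 9 genes, their lists, and the markers were chosen with earlier results of these data known. Text names all 9 genes, listed genes that passed a test, the closest relative of each gene, and the 10 genes most correlated with their mean pattern. Replicate pairs differed by more than sampling noise (chi-square per degree of freedom at least 9.12). The p-values measure the spread between replicates within groups, of 1 parental line and 1 derivative. Whether a letter marks a passage is not given in the sources used here, so pairing was read from the data. Deviations of same-letter libraries from the group means correlated at 0.385, 0.200, and 0.182 in letters a, b, and c for both agents against osimertinib, above the limit of 0.1 in each, so blocked values are given there. For osimertinib against vehicle the correlations were 0.249, 0.0819, and 0.158, and against H1975 they lay between -0.0937 and 0.0689, so letters were not used as a block. Alternatives were RLE size factors, DESeq2 1.42.0, other filters, Sample 3a, fewer groups, the block, and each library left out. The fit was tested on simulated data. Promoter and gene positions are from RefSeq and GENCODE v44.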

Additional observations from a re-analysis of the deposited data

Results flagged for a closer look

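Sample 3a was left out of the comparisons above, other than in the setting that kept it in, and its values are a signal in data that those comparisons did not use. All 9 genes were above each of the 3 vehicle libraries of H1975-OR in it, beside 34.3% of all tested genes. Its values were 18.8 CPM for NTNG2, 72.2 CPM for AFAP1L2, 103 CPM for C15orf48, 18.1 CPM for GEM, 17.02 CPM for CLEC7A, 90.0 CPM for CRIP1, 56.5 CPM for GDPD5, 113 CPM for LTBP2, and 19.9 CPM for TNFRSF1A. C15orf48, LTBP2, AFAP1L2, and CRIP1 were higher in it than in Samples 3b and 3c, and the other 5 were lower. TNFRSF1A (81.9 CPM in 3b and 105 CPM in 3c) and CLEC7A (54.5 and 61.8 CPM) stood nearest to the vehicle level. It belongs to the condition that chose the genes, so its values are no independent support.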

How the results depend on the processing

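Of 9 genes in 5 comparisons, the 45 log2 fold changes were recomputed under up to 24 alternatives each, giving 1020 values, of which 955 kept their sign and their side of the threshold, 30 lost the call, 18 gained it, and 17 turned sign. For both agents against osimertinib, 3 of the 9 genes were called, and 14 of all genes. DESeq2 called 7 and 70, the replicate block 5 and 28, the 2 compared groups alone 0 and 2, and Sample 3a kept in 3 and 7. Chosen after the data were seen, the 11 H1975-OR libraries with the replicate block called 6 and 33, and no library of letter a 5 and 22. For osimertinib against vehicle, 1 of the 9 and 12 of all genes were called. DESeq2 called 143 of all genes, the replicate block 23, and the 11 H1975-OR libraries with the block 35. The 11 libraries without it called 0 of the 9 and 6 of all, the 2 groups alone 0 and 2, no letter a 2 and 133, and Sample 3a kept in 0 of the 9. Both agents against H1975 gave 5 of the 9, and 3 in the 2 groups alone. The block changed no other call of the 9 genes.

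Leaving out 1 library gave 3 to 15 genes called for both agents against osimertinib, with 2 to 4 of the 9. It gave 3 to 61 genes for osimertinib against vehicle, with 0 to 1 of the 9, and 1849 to 3132 for osimertinib against H1975. For vehicle-treated H1975-OR against H1975 it gave 1441 to 2559 genes. 

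Signs turned only for small values. TNFRSF1A turned to -0.022 (block) for osimertinib against H1975 and to -0.067 (no letter a) for both agents against osimertinib. C15orf48 turned to -0.15 (no letter a) for both agents against H1975, and NTNG2 to 8.97e-06 (no letter a) for osimertinib against vehicle. With 1 library left out, the log2 fold change of TNFRSF1A lay between -0.14 and 0.29 for osimertinib against H1975, between -0.036 and 0.22 for both agents against H1975, and between -0.22 and 0.21 for both agents against osimertinib. For osimertinib against vehicle it lay between -0.49 and 0.12 for NTNG2, -0.072 and 0.49 for GEM, and -0.15 and 0.66 for GDPD5. The cause was not tested. Depth limits NTNG2 most, with 1 to 4 counts in an H1975 library.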
